A study of Mus musculus with 7 samples.

Results

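The 5 dopamine receptor genes of the mouse, Drd1, Drd2, Drd3, Drd4 and Drd5, were described in RNA from the medial prefrontal cortex. They were taken by symbol from the authors' deposited table of 17732 genes, and each of the 5 symbols had 1 line. The family was chosen by name, but with the mean counts, differences and errors of this same comparison already known, so the values below describe the members and support no further statement. The samples came from male wild-type (WT) mice of the 129SvEv strain after retrieval of a remote memory. There were 7 libraries of polyadenylated RNA, 3 from animals labelled CFC and 4 from animals labelled SC. The labels do not spell out CFC or SC, give no age, and name no allele or agent other than these treatments. Every value is a mean or a contrast over these libraries, and single libraries were not analysed here.

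Dopamine receptors are G-protein-coupled receptors of the cell surface. The D1-like receptors, encoded by Drd1 and Drd5, couple to stimulatory G proteins and raise cyclic AMP, whereas the D2-like receptors, encoded by Drd2, Drd3 and Drd4, couple to inhibitory G proteins and lower it. In the prefrontal cortex, dopamine arrives mainly from the ventral tegmental area, and its receptors act on pyramidal cells and interneurons and take part in working memory and in learning about threat and safety. Drd1 and Drd2 are most abundant in the projection neurons of the striatum, which lies below the cortex.

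The genes of the D1-like and D2-like receptors differ in their build. In GENCODE M21, on the GRCm38 assembly, the coding sequence of Drd1 (ENSMUSG00000021478, chr13:54051183-54055705, minus strand) lies in 1 exon. That of Drd5 (ENSMUSG00000039358, chr5:38319367-38322518, plus strand) also lies in 1 exon. The coding sequence of Drd2 (ENSMUSG00000032259, chr9:49340627-49408177, plus strand) is split over 7 exons. That of Drd3 (ENSMUSG00000022705, chr16:43754026-43822932, plus strand) is split over 8 exons, and that of Drd4 (ENSMUSG00000025496, chr7:141292006-141296464, plus strand) over 4 exons. Between the coding sequences, identity over aligned bases was 70.3% for Drd1 and Drd5 and 71.8% for Drd2 and Drd3. It was lower for Drd2 and Drd4, at 66.5%, and for Drd3 and Drd4, at 64.9%. The 6 pairs that cross the subfamilies lay between 61.9% and 66.0%, so Drd4 was no closer to Drd3 than to Drd5. The longest stretch of identical bases shared by any 2 of the receptor transcripts was 23 bases, between Drd1 and Drd5.

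**Figure D1:**
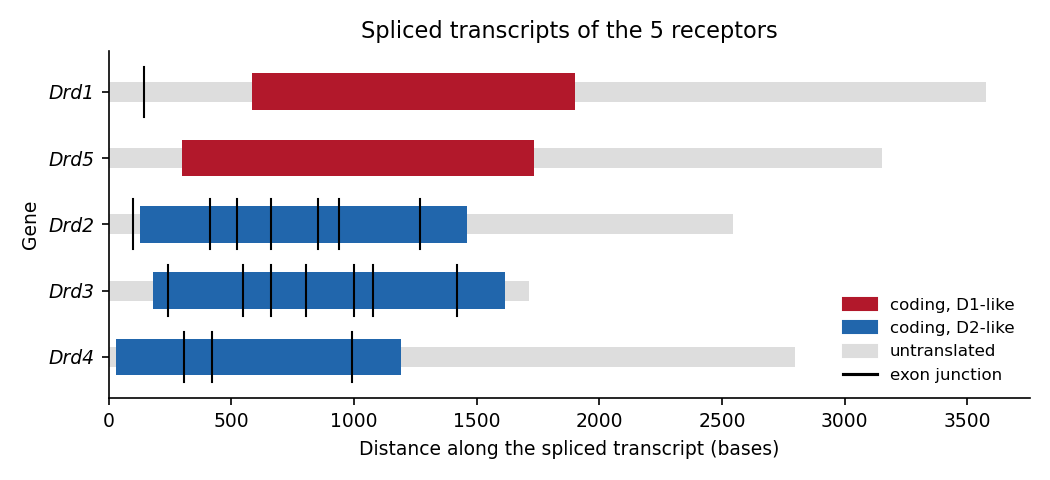
Spliced transcripts of the 5 receptors in GENCODE M21, drawn to scale in bases from the transcript start, with the coding sequence as thick coloured bars, untranslated parts in grey and exon junctions as black lines. No junction falls in the coding sequence of Drd1 or Drd5, while the coding sequences of Drd2, Drd3 and Drd4 are divided into 7, 8 and 4 exons.

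Sequences before the start sites of Drd1 and Drd2 are shown because these were the receptors with the smallest p-values. Each line gives the 200 bases from 250 to 51 bases before the most upstream start site listed by RefSeq (GRCm38.p6), written 5′ to 3′ on the strand of the gene. Capitals mark the GC box (GGGCGG, either strand), a motif bound by Sp-family factors.
Drd1 (chr13:54055709-54055908, minus strand): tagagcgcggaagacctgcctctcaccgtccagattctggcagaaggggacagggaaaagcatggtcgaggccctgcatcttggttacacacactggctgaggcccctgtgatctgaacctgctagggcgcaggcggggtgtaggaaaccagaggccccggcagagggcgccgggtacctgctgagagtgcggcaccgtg
Drd2 (chr9:49340153-49340352, plus strand): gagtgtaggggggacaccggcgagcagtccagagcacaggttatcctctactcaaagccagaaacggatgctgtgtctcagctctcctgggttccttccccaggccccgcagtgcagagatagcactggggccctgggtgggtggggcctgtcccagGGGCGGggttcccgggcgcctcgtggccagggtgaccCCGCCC
The Drd2 window held 2 GC boxes and the Drd1 window none, and 24.6% of 32851 windows of the same length before RefSeq start sites held at least 1. Neither window held a TATA box (TATAAA), a cyclic AMP response element (TGACGTCA) or an E-box (CACGTG) on either strand. These motifs were found in 9.14%, 0.828% and 4.34% of all windows. GC content was 63.5% for Drd1 and 67.5% for Drd2, beside a median of 51.5% over all windows. 

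The receptors were first compared by level, as the mean normalized count per kilobase of annotated exon, since longer transcripts give more reads. Drd1 stood highest, with 102 counts per kb, from a mean normalized count of 371 that the authors' deposited table gave. The authors' deposited table gave Drd2 a mean normalized count of 77.9, or 30.6 counts per kb. For Drd5 the authors' deposited table gave 36.2, or 11.5 counts per kb. The level of Drd1 per kb was 3.34 times that of Drd2 and 8.91 times that of Drd5. Drd1 alone made up 69.6% of the summed level of the family, and it lay above 60.4% of all genes with a length. Drd4 and Drd3 were at the lower end of the table, with 1.74 and 0.849 counts per kb. The authors' deposited table gave them mean normalized counts of 5.90 and 1.45, which amount to 41.3 and 10.2 normalized counts summed over the 7 libraries. Drd3 was thus measured on few reads, and only 0.643% of genes had a lower mean count.

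Each step in this order can be set beside the spread between libraries that the standard errors of the differences imply. This spread is that of the fitted model, in which information on dispersion is pooled over genes. If all libraries weigh alike, the spread of 1 library on the log2 scale was 0.17 for Drd1, 0.39 for Drd5, 0.91 for Drd2, 1.02 for Drd4 and 2.25 for Drd3. From Drd1 to Drd2 the gap in level was 1.74, and from Drd2 to Drd5 it was 1.42, both above the larger spread of the pair, 0.91. From Drd5 to Drd4 the gap was 2.72, above a spread of 1.02. From Drd4 to Drd3 the gap was 1.04, less than the spread of Drd3, 2.25. These spreads are those of 1 library and not errors of a mean over libraries, so they do not decide whether neighbouring levels differ. Summed over the subfamily, the D1-like level per kb was 114 and the D2-like level 33.2, a ratio of 3.43. That ratio rests on Drd1, since Drd5 lay below Drd2.

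**Figure D2:**
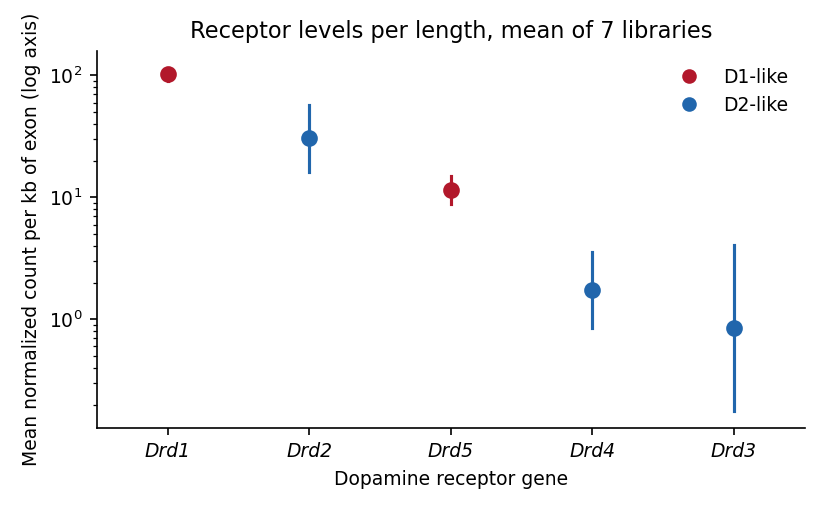
Level of each dopamine receptor gene as mean normalized count per kb of exon over the 7 libraries, on a log axis; bars extend 1 implied standard deviation of a library to each side. Drd1 is highest at 102 and Drd2 next at 30.6, while the bars of Drd4 and Drd3 overlap.

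The comparison of CFC with SC asked how receptor transcripts differed between the groups of animals after retrieval. Neither the labels nor the table name the numerator of the fold changes, so a difference is given by its sign, and no group is called higher. Differences are written as log2 differences, meaning log2 fold changes, with ± the standard error (SE) that the authors fitted. Of the 3 receptors with an adjusted p-value, Drd1 was under 0.05 with a positive sign, and Drd2 and Drd5 were not. Of the 13060 genes that carry an adjusted p-value, 0.513% were under 0.05 in either direction and 0.368% with a positive sign, and no inference about the family is drawn from its count. Drd4 and Drd3 fell under the authors' filter on the mean count, which left no adjusted p-value for genes at 34.8 or less.

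Drd1, the main D1-like receptor of the cortex, stood at a log2 difference of 0.76 ± 0.13 (SE) in the authors' deposited table. For it, the authors' deposited table put the adjusted p-value by DESeq2 at 3.66e-05, and its unadjusted p-value of 8.92e-09 was the third smallest of 17729. The 95% interval ran from 0.50 to 1.02, and the factor between the groups was 1.70. Against a null of a 1.2-fold change in place of none, its adjusted p-value was 0.178, and with a Student t of 5 degrees of freedom in place of the normal it was 0.999, where 0 genes of the whole table passed. With 3 and 4 libraries, the mean count and the factor imply a level between 265 and 286 normalized counts in one group and between 450 and 485 in the other, depending on which group is the numerator. In bulk tissue, a smaller number of cells with the transcript and less transcript per cell cannot be told apart.

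Drd5, the other D1-like receptor, differed in sign. The authors' deposited table gave it a log2 difference of -0.20 ± 0.30 (SE), with an adjusted p-value by DESeq2 of 0.994. The 95% interval ran from -0.78 to 0.38 and did not overlap that of Drd1. Both intervals come from the same libraries, and their difference of 0.96 on the log2 scale was not tested. Of the 3152 exonic bases of Drd5, 1531 are shared with Gm26560, an annotated gene on the opposite strand. The strand setting of the counting is not given in the sources used here, so how reads over these bases were counted is unknown. The level of Drd5 per kb and its place in the order of levels carry the same limit. No exon of the other 4 receptors overlaps an exon of another gene in GENCODE M21.

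Drd2, which encodes the main D2-like receptor and the receptor on which most antipsychotic drugs act, had the largest log2 difference of the family. The authors' deposited table gave 1.63 ± 0.70 (SE), a factor of 3.11 between the groups. By DESeq2 the adjusted p-value was 0.461 and the unadjusted one 0.0188, per the authors' deposited table. Its 95% interval, from 0.27 to 3.0, covered the whole interval of Drd1. The implied group levels were 35.4 to 41.0 and 110 to 127 normalized counts. The standard error of Drd2 was 5.24 times that of Drd1, so the receptor with the larger difference was the one that did not pass. At its own error, Drd2 would have needed an absolute log2 difference of 2.56, a factor of 5.91, to reach the p-value of the last gene under the threshold. For Drd1 the corresponding factor was 1.40, and for Drd5 it was 2.13.

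The counts are per gene and do not separate the long and short forms of the D2 receptor, which differ by 1 coding exon. That exon, number 6 of 8 in the annotated transcript, has 87 bases and is shown because the deposited value sums over transcripts with and without it.
Drd2 exon 6 (chr9:49403194-49403280, plus strand): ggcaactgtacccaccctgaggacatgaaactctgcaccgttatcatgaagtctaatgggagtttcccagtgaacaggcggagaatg
GENCODE M21 lists 1 transcript of Drd2, which holds this exon.

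Drd4 and Drd3, the D2-like receptors of low level, gave wide intervals. The authors' deposited table gave Drd4 a log2 difference of 0.18 ± 0.78 (SE), and its 95% interval ran from -1.35 to 1.71. For Drd3 the authors' deposited table gave 1.02 ± 1.72 (SE), and its 95% interval ran from -2.34 to 4.39. At their own errors, Drd4 would have needed an absolute log2 difference of 2.88 and Drd3 one of 6.33 to reach the p-value of the last gene under the threshold. Both are larger than the differences of Drd1 and Drd2. All 3 D2-like receptors had a positive sign, and the D1-like receptors had 1 of each, but the interval of Drd2 was the only D2-like interval on 1 side of 0.

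**Figure D3:**
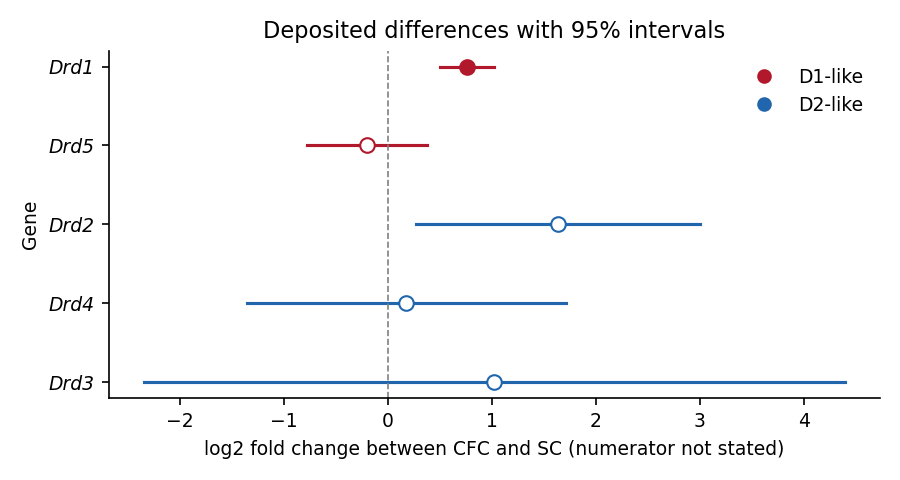
Log2 fold change of each receptor between CFC and SC with its 95% interval; the filled point has an adjusted p-value under 0.05, open points do not, and the dashed line marks no difference. The interval of Drd1 (0.50 to 1.02) lies inside that of Drd2 (0.27 to 3.0) and apart from that of Drd5 (-0.78 to 0.38).

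The errors of Drd1 and Drd2 were next compared with those of genes of like abundance. The standard error of Drd1 was 1.25 times the median of the 200 genes nearest in mean count, and 98.5% of these had a smaller error. That of Drd5 was 0.977 times the median, and 28.5% of its neighbours had a smaller error. For Drd2 the ratio was 3.33, and 99.5% of its neighbours had a smaller error. Of 607 genes within 0.25 of Drd2 in log2 mean count, Drd2 included, 1 other had a standard error as large. Ratios above 2 were found in 242 of the 13060 genes with an adjusted p-value (1.85%), and ratios from 1.5 to 2 in only 48, so the genes of large error formed a separate band. DESeq2 draws the dispersion of a gene towards a trend over abundance and leaves it as measured in genes far above that trend. The ratios of Drd4 and Drd3 were 1.06 and 1.14.

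**Figure D4:**
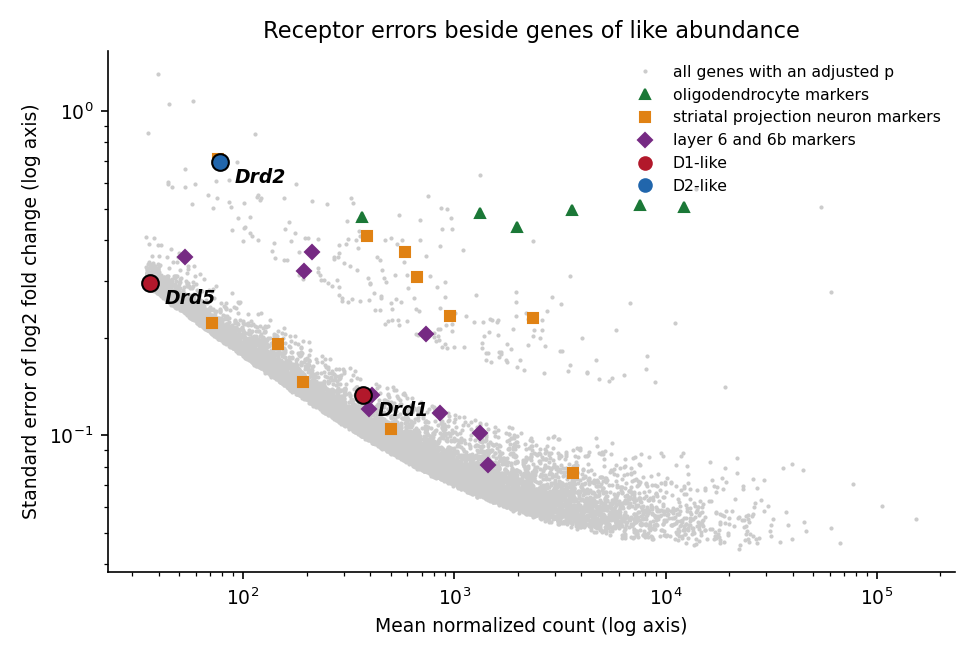
Standard error of the log2 fold change against mean normalized count for all genes with an adjusted p-value (grey, both axes log), with the receptors and 3 marker lists in colour. Drd5 lies on the main trend, at 0.977 times the median error of its neighbours, Drd1 at the upper edge of the main band, at 1.25 times, and Drd2 in the separate upper band, at 3.33 times.

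Markers of striatal projection neurons were examined, since Drd1 and Drd2 are most abundant among these cells. Of 14 genes on the list, 11 had an adjusted p-value, 10 of them positive and 1 negative, beside 49.4% positive among all genes tested. Their median log2 difference was 0.26, beside -0.0017 over all genes. With the 3 genes without an adjusted p-value, Gpr6, Isl1 and Six3, all of positive sign, the median was 0.46. None of the 11 was under 0.05 by DESeq2, and 5 of them had an unadjusted p-value under 0.05 (4 positive), beside 8.1% of all genes with an adjusted p-value. Adora2a, the adenosine receptor of the striatal neurons that carry Drd2, was close to Drd2 in level, difference and error. The authors' deposited table gave it a mean normalized count of 76.0 and a log2 difference of 1.95 ± 0.71 (SE), and its error was 3.35 times that of its neighbours. Gpr52, an orphan receptor, stood at a log2 difference of 0.07 ± 0.15 (SE) in the authors' deposited table. Gpr6, a receptor of the same neurons as Adora2a, stood at 1.02 ± 0.43 (SE) with no adjusted p-value in the authors' deposited table.

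Some genes of the striatal list were singled out after their values were seen. Rgs9, which speeds the shut-off of G proteins in the striatum, stood at a log2 difference of 1.15 ± 0.41 (SE) in the authors' deposited table. Ppp1r1b, which encodes the dopamine-regulated phosphatase inhibitor DARPP-32, stood at 0.70 ± 0.23 (SE) in the authors' deposited table. Six3, a transcription factor of striatal neurons, stood at 4.52 ± 1.03 (SE) in the authors' deposited table, at a mean normalized count of 14.4 and with no adjusted p-value. Without the filter on the mean count, its p-value by Benjamini-Hochberg over all genes with a p-value was 0.00677. Those of Gpr6 and Isl1, the other genes of the list without an adjusted p-value, were 0.522 and 0.601. Six3 was singled out by its value, so no inference about the list is drawn from it. Tac1 and Pdyn, peptides of the striatal neurons that carry Drd1, stood at 0.04 ± 0.19 and -0.24 ± 0.10 (SE) in the authors' deposited table. The error ratio was above 2 in 6 of the 11 genes with an adjusted p-value, beside 1.85% of all genes with one. The mean normalized counts of the list ran from 6.02 to 3639 in the authors' deposited table, where the lowest of all genes was 1.26. The part of striatal RNA in the difference of Drd2 or Drd1 was not tested.

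Drd1 is also expressed in neurons of the deep cortical layers, and markers of layers 6 and 6b were examined for this reason. All 9 genes of the list were positive, their median log2 difference was 0.57, and 5 of them were under an adjusted p-value of 0.05 by DESeq2, beside 49.4% positive and 0.368% under 0.05 with that sign among all genes tested. Earlier results of these data were known when this list was written, so its direction is not independent evidence. The transcriptional regulators Foxp2 and Tle4 stood at log2 differences of 0.73 and 0.33 in the authors' deposited table, where their adjusted p-values were 1.08e-04 and 0.0168. Foxp2 was close to Drd1 in mean count, difference and error, since the authors' deposited table gave it 409 normalized counts and an SE of 0.13. In the authors' deposited table, Hs3st4, a heparan sulfate sulfotransferase, stood at 0.49, and the layer 6b markers Ccn2 and Nxph4 at 2.10 and 1.98. Their adjusted p-values were 0.00135, 3.66e-05 and 7.25e-05, per the authors' deposited table. Of 6 layer 5 genes, 4 were positive and none was under 0.05 by DESeq2. Unadjusted, 2 of these had a p-value under 0.05, beside 8.1% of all genes tested. The same held for all 9 genes of layers 6 and 6b and for 6 of 8 upper layer genes. All 8 upper layer genes were negative, 2 of them under 0.05 by DESeq2, beside 0.145% of all genes with a negative sign. These were Rasgrf2, at a log2 difference of -0.31, and Otof, at -0.42, for which the authors' deposited table gave adjusted p-values of 0.0361 and 0.0496. The part of layer composition in the difference of Drd1 was not tested.

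Cell type markers gave a further setting for these values. The cortical excitatory markers Slc17a7 and Tbr1 had mean normalized counts of 34713 and 4331, as read from the authors' deposited table. On that list of 6 genes, Camk2a was the 1 gene under 0.05 by DESeq2, beside 0.513% of all genes tested, either sign. For Camk2a the authors' deposited table gave a log2 difference of -0.29 and an adjusted p-value of 0.00151. Slc17a7 also had a negative sign, the other 4 a positive one, and the middle of the list lay at 0.0094. Tbr1 stood at 0.22 ± 0.07 (SE) in the authors' deposited table. Tbr1 and Camk2a were the 2 with an unadjusted p-value under 0.05, beside 8.1% of all genes tested. All 6 oligodendrocyte markers were positive, beside 49.4% of all genes tested, with a median log2 difference of 1.2 and a median error ratio of 7.38. None of the 6 was under 0.05 by DESeq2, although all 6 were under an unadjusted p-value of 0.05, beside 8.1% of all genes tested. The 8 interneuron markers had a median log2 difference of 0.0053, 4 of them positive, and none was under an adjusted p-value of 0.05 by DESeq2 or an unadjusted one. Of 9 markers of astrocytes, microglia, vessels and choroid plexus with an adjusted p-value, 2 were positive and none was under 0.05 by DESeq2, with 3 under an unadjusted p-value of 0.05. Kl and Ttr, listed for the choroid plexus and singled out after their values were seen, were both positive. The authors' deposited table gave Kl a log2 difference of 0.59 ± 0.22 (SE) at a mean normalized count of 80.7. For Ttr the authors' deposited table gave 1.86 ± 1.11 (SE) at 67.0, with no p-value, which 17729 of its 17732 genes had. The part of choroid plexus in either value was not tested.

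The other genes of the dopamine pathway were taken by role. Of 10 listed genes for the synthesis, transport and breakdown of dopamine, 8 had an adjusted p-value, 4 of each sign, and none was under 0.05 by DESeq2. Unadjusted, 1 of the 8 had a p-value under 0.05, beside 8.1% of all genes tested. Th, the rate-limiting enzyme of dopamine synthesis, had a mean normalized count of 35.3 and a log2 difference of -0.09 ± 0.32 (SE) in the authors' deposited table. Ddc, which makes dopamine from L-DOPA, stood at -0.01 ± 0.26 (SE) in the authors' deposited table. Slc6a3, the dopamine transporter, had 2.22 normalized counts on average in the authors' deposited table, with no adjusted p-value. Slc18a2, the vesicular monoamine transporter, stood at 0.28 ± 0.18 (SE) in the authors' deposited table.

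Downstream of the receptors, 20 genes for G proteins, adenylyl cyclases, regulators and arrestins were examined, of which Rgs9, Ppp1r1b and Adcy5 are also on the striatal list. Of these, 12 were positive and 8 negative, the median log2 difference was 0.02, and none was under 0.05 by DESeq2. Unadjusted, 5 of the 20 had a p-value under 0.05, beside 8.1% of all genes tested. Gnal, the G-protein subunit that couples D1 receptors to adenylyl cyclase in the striatum, stood at a log2 difference of -0.01 ± 0.07 (SE) in the authors' deposited table. Gnas, the stimulatory subunit found in most tissues, stood at -0.25 ± 0.09 (SE) in the authors' deposited table, where its adjusted p-value was 0.290. The inhibitory subunits Gnai1 and Gnai2, which D2-like receptors use, stood at 0.08 ± 0.07 and -0.0062 ± 0.07 (SE) in the authors' deposited table. Among 9 genes for partner and trafficking proteins, 3 were positive and none was under 0.05 by DESeq2, with 2 under an unadjusted p-value of 0.05. Caly, which encodes the D1 receptor partner calcyon, stood at 0.06 ± 0.07 (SE) in the authors' deposited table.

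**Figure D5:**
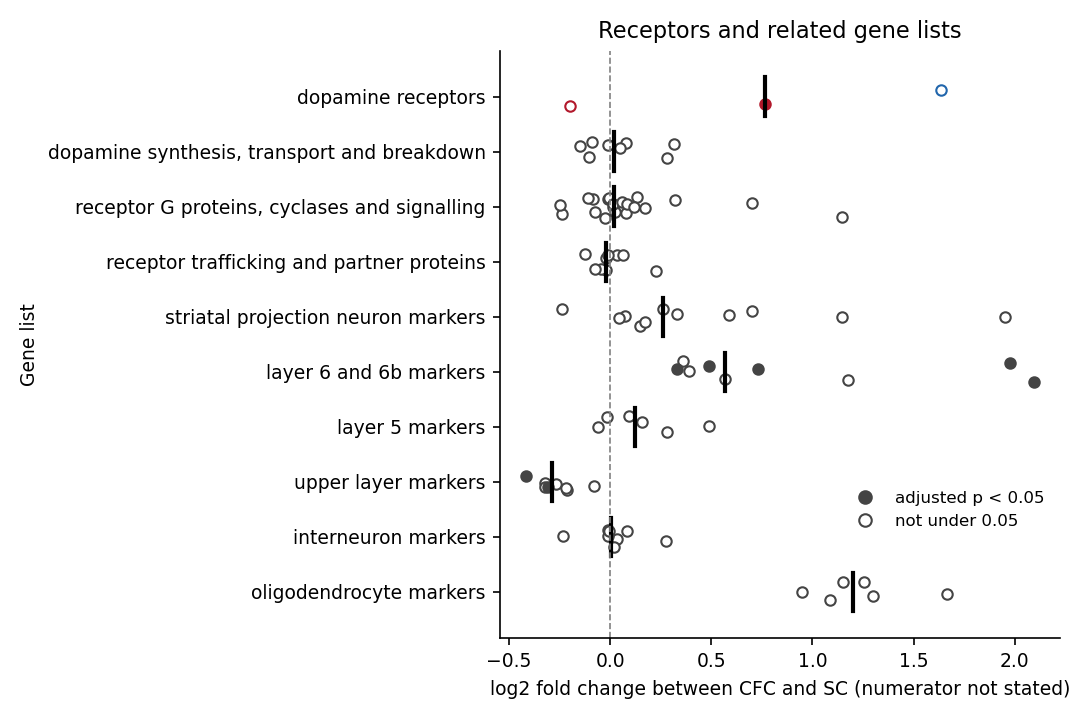
Log2 fold changes between CFC and SC of the receptors and of related gene lists; each point is a gene with an adjusted p-value, filled where that is under 0.05, and black bars are list medians. The median is 0.57 for layers 6 and 6b, 0.26 for striatal markers, 1.2 for oligodendrocyte markers and within 0.02 of 0 for the dopamine synthesis, signalling and partner lists.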

How the data were processed

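Per the labels' protocols, libraries were made from 100 ng of RNeasy Micro extract with the KAPA mRNA HyperPrep kit. The submitters' processing notes name Trimmomatic, Subread, DESeq2 and the mm10 build. Versions, annotation and strand setting are not given in the sources used here. Per the file headers, the authors deposited a mean normalized count (a signal averaged over libraries), a log2 fold change with its standard error, a Wald score, and unadjusted and adjusted p-values. The score equalled fold change over error in 17732 genes (relative tolerance 1e-06). The planned fallback for a results table was used: no test was run on libraries, deposited p-values were readjusted or recomputed only as alternatives, and 95% intervals are normal intervals around the fold change, built from its deposited error. Exon lengths came from GENCODE M21. Coding sequences were aligned globally with Biopython 1.88 (match 1, mismatch -1, gap opening -3, extension -0.5). Tables were handled in Python with pandas 2.3.3 and SciPy 1.17.1, and the adjustments were tested on simulated data. Depth per library is unknown. Replicates are libraries; the labels do not say whether each is 1 animal, so p-values measure the spread between these libraries. Members and the 12 gene lists were chosen with earlier results of these data known. Named genes were the members, every list gene under the threshold, otherwise the first 4 of the list, and of other receptors the 3 of highest mean count and the 3 of smallest p-value; fewer are given where they add nothing. Slc6a2, Fam84b, Hbb-bs, Hrh4 and Taar1 had no line under these symbols. The planned protein comparison was replaced by one of coding bases.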

Additional observations from a re-analysis of the deposited data

How the results depend on the processing

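No paired analysis was possible because the values used here are contrasts over all libraries, not values per library. For the same reason other normalizations, count filters and leaving out a library were not run, so whether 1 library decides a value is unknown. Drd1 stayed under 0.05 with Benjamini-Hochberg adjustment over all genes with a p-value (4.49e-05), over the genes with a deposited adjusted p-value (3.31e-05) and over those whose mean count reached 10 (3.78e-05). Against a null of a 1.2-fold change its adjusted p-value was 0.178, and with a Student t of 5 degrees of freedom in place of the normal it was 0.999. The number of receptors under the threshold was then 0 and 0 (the count with the t was added after the data were seen), and 1 otherwise. The t with 5 degrees of freedom takes no account of the pooling of dispersions over genes and left 0 genes of the whole table. Drd2 and Drd5 stayed above the threshold in all 5 alternatives, Drd2 between 0.430 and 1. With the t quantile the interval of Drd2 ran from -0.15 to 3.42 and included 0, and that of Drd1 from 0.42 to 1.11 and overlapped that of Drd5, from -0.96 to 0.56. Over all genes, 67 were under 0.05. Counts added after the data were seen were 101 under 0.1, 21 by Bonferroni and 3 against the 1.2-fold null. The order of the 5 levels per kb was the same with the longest or the mean coding transcript. Drd2 and Drd5 each have 1 annotated transcript, so the step between them could not change in this check. Error ratios moved by less than 1.5 times with 100 or 500 neighbours. Without the filter on the mean count, the median of the striatal list was 0.46 and that of the synthesis list -0.05, and at 0.1 the layer 5 list had 1 gene.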

Other observations

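The other receptors for monoamines and acetylcholine were set beside the dopamine receptors. Of 31 genes, 29 were listed and 23 had an adjusted p-value, 10 positive and 13 negative. Their median log2 difference (log2 fold change) was -0.05. None was under 0.05 by DESeq2, and 4 were under an unadjusted p-value of 0.05 (3 positive), beside 8.1% of all genes with an adjusted p-value. The muscarinic receptors Chrm1 and Chrm3 and the histamine receptor Hrh3 had the highest mean normalized counts, 4573, 1331 and 1676 in the authors' deposited table. Hrh3 had the smallest unadjusted p-value of the list, 0.00177, at a log2 difference of -0.22 ± 0.07 (SE) in the authors' deposited table. Adra1a and Htr4, an adrenergic and a serotonin receptor, followed at 0.25 ± 0.09 and 0.79 ± 0.31 (SE) in the authors' deposited table. For Hrh3, Adra1a and Htr4 the authors' deposited table gave adjusted p-values of 0.159, 0.259 and 0.369.

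Adra2a, an adrenergic receptor singled out after its values were seen, resembled Drd2 in its error. The authors' deposited table gave it a log2 difference of 0.89 ± 0.39 (SE) and an adjusted p-value of 0.474, and its error was 3.28 times the median of its 200 neighbours in mean count. Error ratios above 2 were found in 4 of the 23 receptors with an adjusted p-value, beside 1.85% of all genes with one.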
